A study of Citrus maxima with 6 samples.

Results

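In the ripe pericarp (the fruit peel) of pummelo, 25 of the 29406 genes in the table were higher in every library of an orange-pericarp mutant than in any library of its wild type and stood at nearly the same level in all 3 mutant libraries. The genes were chosen by 4 limits on the deposited RPKM values (read counts scaled by gene length and by the number of mapped reads of the library). All 6 values had to be at least 1 RPKM, and their mean had to be under 500 RPKM. The lowest mutant value had to be at least 1.5 times the highest wild-type value, here called the separation. The highest mutant value had to be at most 1.4 times the lowest mutant value, here called evenness. A further 5 genes were dropped by name, and none of them met the evenness limit, since their highest mutant value was 1.46 to 1.99 times their lowest. Because these limits used the mutant and wild-type values themselves, the differences of the 25 genes between mutant and wild type are given as a description.

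MT is a spontaneous bud mutant of 'Guanxi' pummelo (Citrus maxima) with an orange pericarp rich in β-carotene, and WT is 'Guanxi' itself. Both were sampled as untreated pericarp at the ripe stage, with 3 libraries each, described as biological replicates made from sample pools. MT is 1 mutant line, so its mutation and any other difference between that line and WT cannot be told apart, and the mutated gene is not given in the sources used here. Each library holds RNA from the whole pericarp, in which fewer cells of a type and less RNA per cell cannot be told apart.

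The pericarp of a citrus fruit has an outer coloured layer with oil glands, covered by an epidermis, and an inner spongy white layer. Carotenoids accumulate in plastids as the fruit ripens and give orange peel its colour. Of the 25 genes, 2 carry the name of a known protein. The first, a γ-tubulin complex component, belongs to the complex from which microtubules are nucleated in plants, which lack centrosomes. The other is a disease resistance protein of the kind that recognises pathogen molecules inside the cell.

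The values rest on 9787390 to 11108186 reads a library in MT and 9253681 to 10347017 in WT, recovered from the steps of the RPKM values. The median gene of all genes tested was 0.15 higher in MT on the log2 scale, so log2 differences below are given relative to that median. The study's list was chosen on these samples, so a lack of overlap among its genes carries no test. Of all genes tested, 23.3% had MT wholly above WT and 5.36% had MT wholly below WT. These shares are counted on the values as deposited and so keep the shift of the median gene. Of 6 genes of the epidermis, stomata and peel surface in the list, 4 had MT wholly above WT and 2 wholly below. Their summed level was 112 to 177 RPKM in MT and 71.3 to 80.9 RPKM in WT, most of it from 3-ketoacyl-CoA synthase 21, an enzyme that lengthens fatty acids, with 85.2 to 131 RPKM in MT and 39.6 to 47.0 RPKM in WT. MUTE, a regulator of stomatal development in Arabidopsis, averaged 3.85 ± 1.69 RPKM in MT and 23.2 ± 1.88 RPKM in WT (SD, n = 3 each), opposite to the sum. Of the other markers, EPFL9, a peptide that promotes stomata in Arabidopsis, was listed at 0 in all 3 WT libraries. In MT it was low, at 0.573 to 1.59 RPKM. Fatty acyl-CoA reductase 3, an enzyme of wax synthesis, was listed at 0 in MT1 and MT2. It had 0.178 RPKM in MT3 and 0.574 to 4.59 RPKM in WT. HDG5 averaged 18.2 ± 6.48 RPKM in MT and 2.11 ± 0.233 RPKM in WT (SD, n = 3 each). ASPG1 averaged 10.6 ± 4.21 RPKM in MT and 2.96 ± 0.520 RPKM in WT (SD, n = 3 each). The part of these cell types in the values of the 25 genes was not tested.

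Of the 13155 genes that met the 2 limits on level, 227 also met the separation limit after the named genes were left out, and 25 of these (11.0%) were even in MT. The other 202 had the same separation from WT but differed by more than 1.4 times among the MT libraries. In the opposite direction, 50 genes were lower in MT by the same separation, and 13 of them (26%) were even. Of all 13155 genes, 53.0% were even in MT. The counts in both directions use the values as deposited, without subtracting the shift of the median gene. The limits cut through a continuum. Among genes even in MT, 114 had a separation between 1.3 and 1.5, and 13 of the 25 had a separation under 1.6, while 3 reached 2 or more. The gene nearest inside the separation limit was Cs2g06070, with 7.28, 8.93 and 8.26 RPKM in MT and 4.50, 4.84 and 4.50 RPKM in WT. The nearest outside was Cs5g30290, with 5.66, 5.09 and 6.10 RPKM in MT and 3.40, 2.17 and 2.74 RPKM in WT.

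At the evenness limit, Cs5g05500 stood just inside, with 10.7, 9.05 and 7.67 RPKM in MT and 4.379, 4.296 and 5.097 RPKM in WT. Cs3g07370 stood just outside, with 11.0, 14.1 and 10.1 RPKM in MT and 5.84, 5.43 and 5.63 RPKM in WT. Of the separated genes, 11 had a highest MT value between 1.4 and 1.5 times the lowest, and 10 of the 25 were above 1.3 times. At the 1 RPKM limit the nearest gene outside was Cs8g18860, matched to ARR2, which in Arabidopsis is a response regulator of cytokinin signalling. It had 2.9998, 3.372 and 3.208 RPKM in MT and 1.004, 0.949 and 0.898 RPKM in WT, so that the last 2 WT values alone kept it out. No gene was kept out by the limit on the mean, and the member with the highest mean, Cs3g18950, averaged 92.1 RPKM over all 6 libraries.

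**Figure D1:**
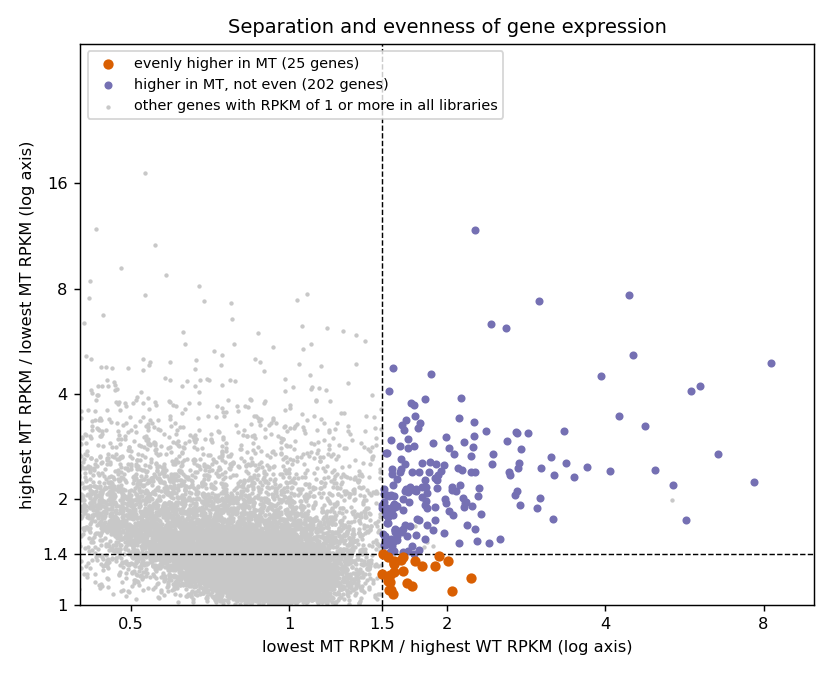
Each point is a gene with all 6 values of at least 1 RPKM, placed by its separation (lowest MT over highest WT value, x axis, log scale) and its spread among MT libraries (highest over lowest MT value, y axis, log scale), with dashed lines at the limits of 1.5 and 1.4. The 25 even genes lie in the lower right corner near both lines, the 202 uneven genes lie above them, and genes beyond the axis ends are not drawn.

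The γ-tubulin complex gene, orange1.1t02217, was matched to component 3, whose role in nucleating microtubules is known in animals, yeasts and plants. It had 4.40, 5.16 and 3.99 RPKM in MT and 1.65, 2.11 and 1.56 RPKM in WT. Every MT library was above every WT library, and the lowest MT value was 1.89 times the highest WT value. The level averaged 4.51 ± 0.591 RPKM in MT and 1.77 ± 0.296 RPKM in WT (SD, n = 3 each), a ratio of 2.54, from 526 reads in MT and 200 in WT. In limma, fitted to all tested genes, its relative log2 difference was 0.99 with a standard error of 0.21 and a Benjamini-Hochberg adjusted p of 0.0723 (0.0436 to 0.264 over the alternatives).

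The resistance gene, orange1.1t04672, was matched to RGA3 of a wild potato, a putative resistance protein. It had 7.24, 9.74 and 7.25 RPKM in MT and 4.43, 2.70 and 2.44 RPKM in WT. The groups did not overlap, and here the WT libraries were less alike than the MT libraries, with a highest over lowest value of 1.34 in MT and 1.82 in WT. The level averaged 8.08 ± 1.44 RPKM in MT and 3.19 ± 1.08 RPKM in WT (SD, n = 3 each), a ratio of 2.53. Its relative log2 difference was 1.09 with a standard error of 0.25 and a limma adjusted p of 0.0902 (0.0577 to 0.282 over the alternatives). Genes of this family can lie in near-identical copies, whose common reads are lost where only uniquely mapped reads count. Copies of this gene were not examined, so this level is uncertain.

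Cs3g06450 was in the same list of the study but had no protein match. It had 7.28, 7.95 and 5.78 RPKM in MT and 2.995, 2.851 and 1.004 RPKM in WT. The groups did not overlap, and WT3 stood apart from the other WT libraries with 9 reads. It had the largest ratio of means among the 25, 3.07, with 7.001 ± 1.11 RPKM in MT and 2.28 ± 1.11 RPKM in WT (SD, n = 3 each), and its WT3 value was also the nearest of all to the 1 RPKM limit.

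The widest separations belonged to genes outside the study's list, which have no name here. Cs8g19120 had 3.58, 3.62 and 4.26 RPKM in MT and 1.61, 1.47 and 1.34 RPKM in WT, a separation of 2.22. Cs4g03950 had 3.95, 4.32 and 3.97 RPKM in MT and 1.63, 1.49 and 1.94 RPKM in WT, a separation of 2.04. These levels rest on few reads, 118 in MT and 44 in WT for Cs8g19120, and 100 in MT and 40 in WT for Cs4g03950. The remaining gene with a separation of at least 2, orange1.1t01521, was chosen for mention after its values were seen. It had 14.3, 17.8 and 13.3 RPKM in MT and 6.16, 6.21 and 6.64 RPKM in WT.

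Cs3g18950 had by far the highest level, with 137, 127 and 105 RPKM in MT and 51.7, 66.1 and 65.8 RPKM in WT, from 8543 reads in MT and 4109 in WT. Its groups did not overlap, although MT3 lay lower than the other MT libraries. Only 3 of the 25 genes averaged 20 RPKM or more in MT. The other 2, chosen for mention after their values were seen, were orange1.1t00878 and Cs7g07760. orange1.1t00878 had 24.98, 25.55 and 34.22 RPKM in MT and 15.7, 15.7 and 16.2 RPKM in WT, so that its WT libraries were almost equal while MT3 was highest in MT. Cs7g07760 had 24.4, 25.6 and 23.3 RPKM in MT and 14.9, 10.4 and 13.7 RPKM in WT. The most even of the 25, Cs3g07300, also named after its values were seen, had 5.37, 5.77 and 5.44 RPKM in MT and 2.86, 3.41 and 3.37 RPKM in WT.

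**Figure D2:**
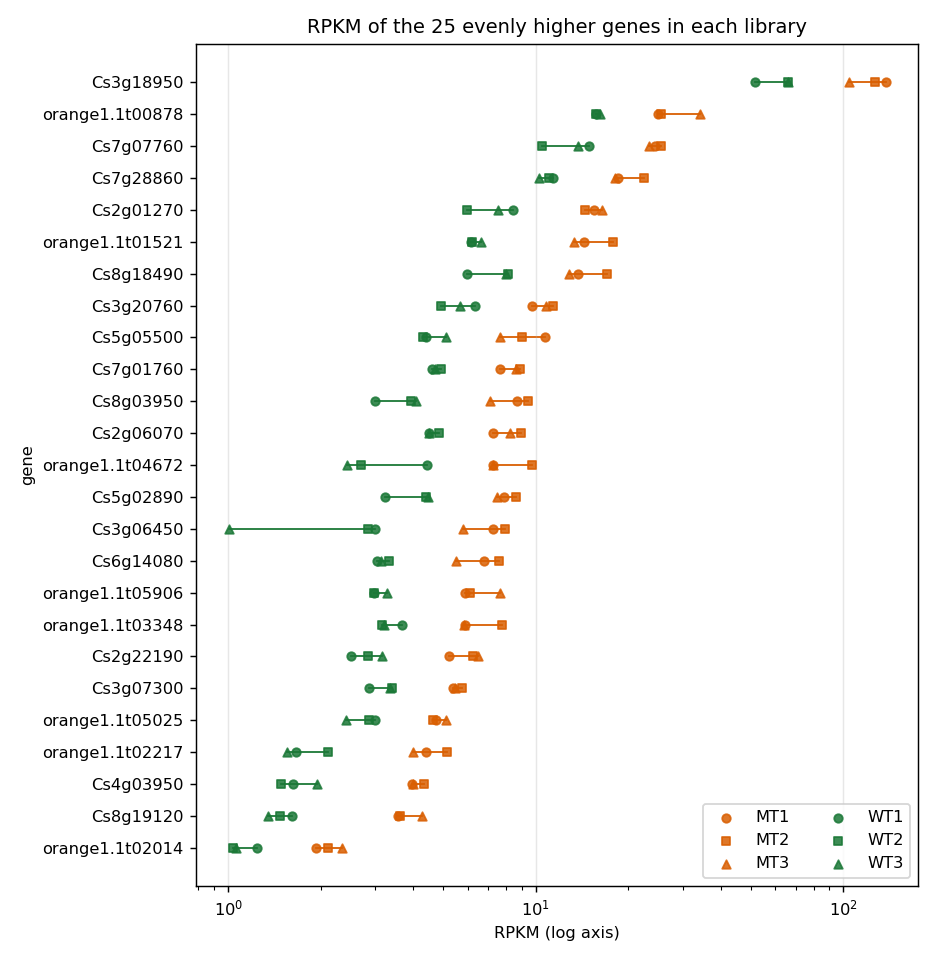
RPKM (log axis) of each of the 25 genes in the 3 MT libraries (orange) and the 3 WT libraries (green), with a line from the lowest to the highest value of each group. Every gene's MT values lie above its WT values, and most genes lie between 1 and 20 RPKM, with Cs3g18950 above all others.

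The median of their mean levels was 8.08 RPKM in MT and 3.66 RPKM in WT, and 17 of them averaged under 10 RPKM in MT. By the study's classes of level (up to 3, 3 to 15 and over 15 RPKM), 1, 18 and 6 of the genes fell in the low, middle and high class in MT, and 7, 16 and 2 in WT. The ratio of means ran from 1.72 to 3.07 with a median of 1.99, and 12 of 25 reached 2. Among the 202 uneven genes 201 reached 2, and their ratios ran from 1.96 to 23.96 with a median of 3.29. The gap between the lowest MT and the highest WT value was 0.687 to 38.5 RPKM, with a median of 2.73 RPKM.

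The evenness of the MT libraries set these genes apart from the uneven genes by construction, and the WT libraries were not part of that limit. WT values lay within 1.4 times of each other in 21 of 25 genes (84%), in 99 of the 202 uneven genes (49.0%) and in 61% of all genes at or above the 1 RPKM limit. The WT values do enter the separation through their highest value, so this comparison carries no test. The 4 genes whose WT values lay further apart were Cs3g06450, orange1.1t04672, Cs7g07760 and Cs2g01270, the last chosen after its values were seen. The coefficient of variation among WT libraries had a median of 11.2% in the 25 genes, 17.95% in the uneven genes and 14.3% in all genes at or above the limit.

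For all genes at or above the 1 RPKM limit, counting alone would give a median coefficient of variation of 5.94% in MT and 6.34% in WT. Their measured medians were 16.6% in MT and 14.3% in WT. For the 25 genes, counting alone would give medians of 8.41% in MT and 13.3% in WT. Their measured medians were 12.4% in MT, where the evenness limit caps the spread, and 11.2% in WT. Among the 25 genes, the measured value was below the counting value in 11 in MT and in 14 in WT. Reads per gene and library ran from 9 to 3423. In 11 genes every WT library held fewer than 50 reads, and 5 genes had at least 100 reads in all 6 libraries. The counting value covers the sampling of reads only, since PCR reads without molecular identifiers are not independent molecules.

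**Figure D3:**
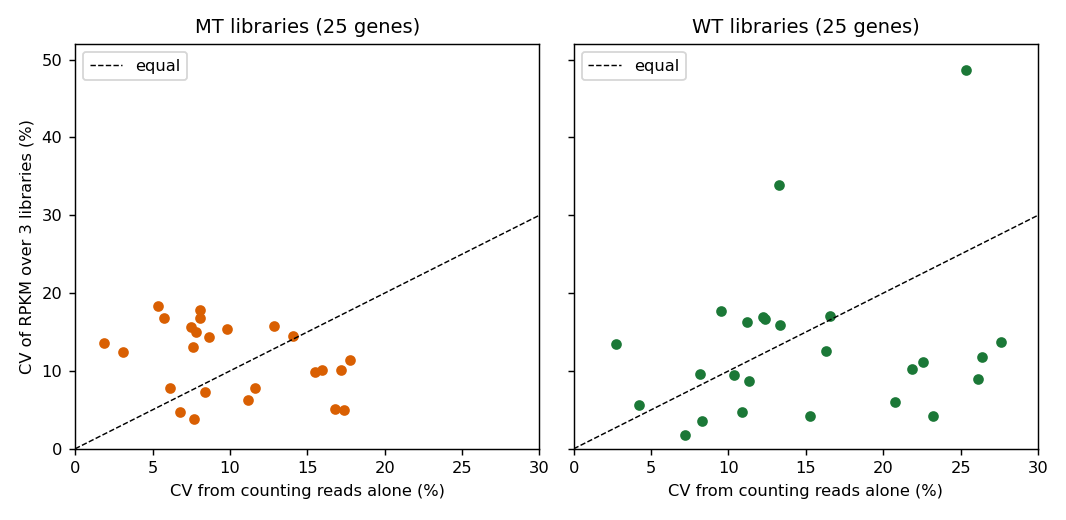
Coefficient of variation over 3 libraries (y axis, percent) against the value that read counting alone gives (x axis, percent) for the 25 genes, MT in the left panel and WT in the right, with a line of equality. Points lie on both sides of the line, 11 below it in MT and 14 below it in WT.

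The libraries took different turns as the highest. MT2 was highest in 16 of 25 genes (64%), MT3 in 7 and MT1 in 2, whereas MT2 was highest in 193 of the 202 uneven genes (95.5%) and MT3 in none of those. Among all genes at or above the 1 RPKM limit MT2 was highest in 44.7% and MT3 in 35.7%. The evenness limit acts on these same MT values, so the contrast with the uneven genes comes in part from that limit. The lowest MT value of the 25 genes came from MT3 in 12, MT1 in 11 and MT2 in 2. Set against the WT mean, the median of the 25 genes stood at 1.91 for MT1 and MT3 and at 2.07 for MT2, and that of the uneven genes at 2.61 for MT1, 4.76 for MT2 and 2.25 for MT3. In WT the medians of the 25 genes were 0.972, 1.01 and 1.02. The summed level of the 25 genes was 363, 377 and 336 RPKM in MT and 172, 181 and 184 RPKM in WT.

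**Figure D4:**
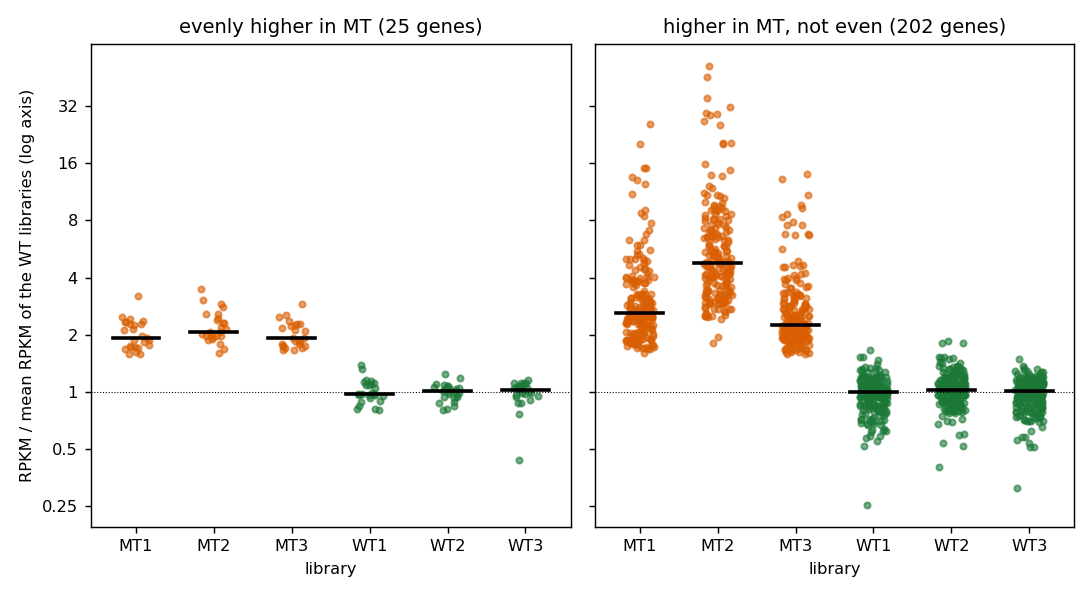
RPKM divided by the gene's WT mean (y axis, log scale) in each MT and WT library for the 25 even genes and the 202 uneven genes, with bars at the medians. The medians of the even genes lie between 1.91 and 2.07 in MT, while those of the uneven genes lie between 2.25 and 4.76 and are highest in MT2. The evenness limit that parts the groups acts on these MT values.

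In limma, none of the 25 genes passed an adjusted p of 0.05, where 0.0179% of all 16719 genes tested passed as higher in MT. The study called its genes with another method, DESeq, at an adjusted p of 0.05, and its list used here held 3 of the 25. In limma at an adjusted p of 0.1, 20 of 25 passed, where 2.02% of all genes passed. At an unadjusted p of 0.05, 25 of 25 passed, where 16.9% passed. The limits required a wide separation and a small MT spread. Both lower the p of limma, so the shares of the 25 carry no test in any fit. MT lay wholly above WT in 25 of 25, which the limits fix, against 23.3% of all genes tested and 23% of those at or above the 1 RPKM limit. The adjusted p of the 25 ran from 0.0540 to 0.133. Their relative log2 difference had a median of 0.79 and ran from 0.55 to 1.37, against 1.38 for the uneven genes and 0 for all genes tested. With limma voom on the recovered reads, 0 of 25 passed at an adjusted p of 0.05 and 0 at 0.1 (0% and 0.126% of all genes), and 25 passed an unadjusted p of 0.05 (16.6% of all genes), with adjusted p from 0.107 to 0.172. Without MT3, 11 of 25 passed an adjusted p of 0.05, where 3.28% of all genes passed as higher, and 22 passed 0.1, where 8.71% did. Without MT1, 0 passed 0.05 (0.0179% of all genes) and 1 passed 0.1 (0.706%), and without MT2, 0 passed 0.05 (0.0544%) and 1 passed 0.1 (0.664%). With array weights 7 of 25 passed 0.05, where 1.08% of all genes did. At 0.1, 5 of 25 passed with no filter on low values (0.657% of all genes), 8 with median ratio scaling (0.928%) and 4 with quantile normalization (0.579%). Without WT1, WT2 or WT3 in turn, 0 of 25 passed at 0.05 and 0 at 0.1, as did 0% of all genes as higher. The shares of all genes that passed, here and in the other fits, count only genes higher in MT.

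Membership depended on the scale of the libraries. When the values were rescaled by the median ratio of all genes, 12 of the 25 still met the limits and 5 other genes joined them, 17 in all. All 13 that left failed the separation limit, and the median separation of the 25 was then 1.48. Rescaled to a common total of RPKM, 24 genes met the limits, 22 of them among the 25. After quantile normalization 11 met them, 8 among the 25. The limits were met under all 3 rescalings by 6 of the genes, among them Cs8g19120, Cs4g03950 and orange1.1t01521, and under none by Cs2g06070 and Cs5g05500.

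**Figure D5:**
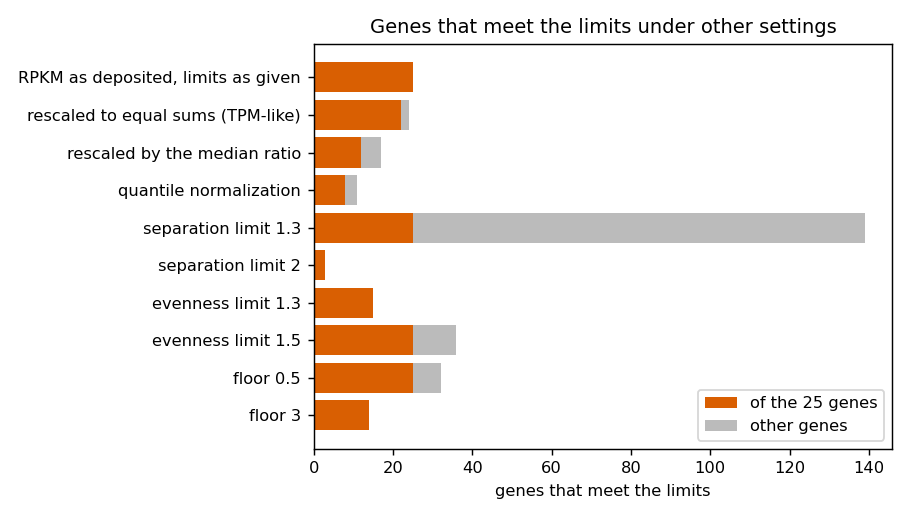
Number of genes that met the limits (x axis) with the values as deposited and with each other scaling or limit, orange for the 25 genes and grey for others, with floor standing for the minimum RPKM. The deposited values gave 25 genes, median ratio scaling 17, quantile normalization 11, and a separation limit of 1.3 gave 139.

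In the study's list, which was chosen on these samples and is not independent evidence of direction, 7 genes were matched to proteins of the cytoskeleton. All 7 had MT wholly above WT (23.3% of all genes tested). In limma 7 passed an adjusted p of 0.1 (2.02% of all genes passed as higher) and 0 passed 0.05, and their relative log2 difference had a median of 1.86 (0.99 to 2.87). Of these the γ-tubulin complex gene was the 1 within 1.4 times among MT libraries, and the others differed by 1.69 to 3.17 times. A group of 16 genes had the word resistance in the name of the matched protein. Of these 16, 13 had MT wholly above WT (23.3% of all genes tested) and 3 wholly below (5.36%). Among the 14 tested, 12 passed 0.1 as higher and 1 as lower, where 2.02% of all genes passed as higher and 0.538% as lower, and 0 passed 0.05 in either direction. The 1 that passed as lower, orange1.1t02077, was matched to a disease resistance response protein. That name does not place it among the proteins that recognise pathogen molecules inside the cell, and its kind was not tested. The relative log2 difference of the 14 had a median of 1.27 (-1.49 to 2.81). Of those above WT, orange1.1t04672 was the 1 within 1.4 times, and the others differed by 1.68 to 2.40 times. The other gene matched to RGA3, Cs1g01160, averaged 3.26 ± 1.05 RPKM in MT and 0.841 ± 0.108 RPKM in WT (SD, n = 3 each), and its highest MT value was 1.96 times its lowest.

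By their identifiers, 17 of the 25 genes lay on 7 numbered chromosomes, with 4 on chromosome 3 and 3 each on chromosomes 2, 7 and 8. The other 8 (32%) were unplaced, against 14.2% of all genes at or above the 1 RPKM limit. No 2 of these 17 lay next to each other, and the closest pair on a chromosome was 64 genes apart in the numbering. Of the 34 genes next to the 17, 0 were among the 25. Of the 20 neighbours tested, 4 (20%) had MT wholly above WT, against 23.3% of all genes tested, and their median relative log2 difference was 0.05 (-0.69 to 1.88). The gene models of the 25 were 408 to 5303 bp long with a median of 1236 bp, against 1846.5 bp for the uneven genes and 1789 bp for all genes at or above the limit.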

How the data were processed

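Poly(A) RNA of 6 pericarp libraries was sequenced. The authors removed low-quality reads, mapped the rest to the sweet orange genome with TopHat (Bowtie2 2.1.0 in the submitters' processing notes) and deposited RPKM per gene from uniquely mapped reads, under sweet orange gene identifiers. Strand and the read counter are not given in the sources used here. From the deposited RPKM, whole reads were recovered for all 23454 genes with a read (tolerance 0.005 reads), with gene lengths solved from the steps. The authors' own comparison columns (fold changes and p-values) in the supplement were not used. Protein names came from its list of Swiss-Prot matches, which covers only genes that the study called.

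The members and lists were chosen with earlier results of these data known. limma 3.58.1 (R 4.3.3, Python 3.11.15) was fitted to log2(RPKM + 0.5) for genes with a mean of at least 0.3 RPKM, with a trended prior and Benjamini-Hochberg adjustment over 16719 genes. Differences on this scale understate those of low genes. Standard errors and p-values are those of the unshifted differences. Named genes were members with a name, the unnamed pair with the widest separation, the listed gene without a match, and the genes nearest each limit. Scripts were tested on simulated data. Alternatives changed the pseudocount, filter, scaling, limits, trend, weights, pairing block, read model and libraries. With 3 against 3 libraries a two-sided exact permutation test of a single gene cannot go below 0.1, so none was used.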

Additional observations from a re-analysis of the deposited data

How the results depend on the processing

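With 6 genes called at an adjusted p of 0.05 over all genes, a pseudocount of 0.1 gave 10, median ratio scaling 11, quantile normalization 12, no trend 15, array weights 237, voom 0, and leaving out 1 library 0 to 863. With 427 called at 0.1, no filter gave 204, median ratio scaling 254, quantile normalization 162, array weights 1211, voom 38, and leaving out 1 library 0 to 2163. Of the 25 genes, 0 passed 0.05, against 7 with array weights and 0 to 11 when 1 library was left out (11 without MT3), and 20 passed 0.1, against 5 with no filter, 8 with median ratio scaling, 4 with quantile normalization, 0 with voom and 0 to 22 when 1 library was left out. The limits gave 25 genes, against 11 with quantile normalization, 139 at a separation of 1.3 and 3 at a separation of 2. They gave 15 at an evenness of 1.3, 14 at a minimum of 3 RPKM, and 55 to 365 when 1 library was left out. With a library left out, the limits on lowest and highest values can only loosen, and all 25 genes still met them. The median relative log2 difference of the 25 was 0.73 to 0.84 when 1 library was left out, and its sign, like that of each member, is set by the limits that chose the genes. Apart from that loosening, the cause of these differences was not tested.

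Whether replicate numbers pair the libraries is not given in the labels. Deviations of same-numbered libraries correlated at -0.0458, 0.193 and 0.158, and those of differently numbered libraries at -0.286 to 0.157. These values do not settle whether the libraries were paired. A fit with the replicate number as a block called 122 genes at 0.05 and 691 at 0.1, of which 0 and 11 were among the 25. Depth limits the genes with few reads, whose WT libraries held as few as 9.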
